A study of Mus musculus with 20 samples.

Results

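The genes described here encode the constitutive subunits of the proteasome and the activators that dock on it. They were the symbols of the count table that read Psma, Psmb, Psmc or Psmd followed by a number, plus Psme1, Psme2 and Psme3, without the inducible catalytic subunits Psmb8, Psmb9 and Psmb10. Of 39 such symbols, 38 had at least 10 counts in total and are the members; the remaining one, Psmb11, had 1 count. The table listed 33243 symbols, of which 16632 reached the same total and were tested. By role, 15 members form the core particle (8 of the alpha ring, 3 catalytic beta subunits and 4 other beta subunits), 17 form the regulatory cap (6 ATPases, 3 other base subunits and 8 lid subunits), 3 are chaperones of cap assembly and 3 are activators.

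The proteasome is the protease that degrades most ubiquitin-tagged proteins of a cell. A barrel of stacked alpha and beta rings holds the cutting sites, and a cap recognises the ubiquitin tag, removes it and uses ATPases to unfold the substrate and thread it inside. Interferon signalling in macrophages is known to exchange the constitutive catalytic subunits for inducible ones and to raise the activator formed by Psme1 and Psme2, which favours peptides for MHC class I presentation, so that "constitutive" names a subunit type and not a fixed level.

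RNA-seq was carried out on dural CNS-associated macrophages (dCAMs), the macrophages of the outer brain membrane, sorted from the cranial dura mater as CD45int CD11b+ CD206int-high cells. All animals were Ccr2creERT2/+ R26tdT/tdT mice, in which tamoxifen marks cells that express Ccr2 at that time, and their descendants, with the red protein tdT. All of them, PBS controls included, had received the CSF1R inhibitor BLZ945 at 200 mg/kg for 7 days, which depletes macrophages, and tamoxifen at 2 mg per day on the last gavage day and on a pair of later days. They received LPS (2.5 mg/kg) or PBS 8 weeks after the last gavage, and the dura was taken 12 h later. From each of 10 mice, a tdT+ and a tdT- library was made, giving 4 groups of 5 libraries: tdT- PBS, tdT- LPS, tdT+ PBS and tdT+ LPS. The tdT- cells were not marked by the driver and may include any cell that lacked Ccr2 at the time of tamoxifen. The mouse numbers of the LPS group (54 to 61) and of the PBS group (174 to 179) do not overlap, and any effect of handling the numbers together cannot be told apart from LPS.

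Library totals ran from 6017650 to 12208203 counts in PBS mice and from 12073566 to 18925908 in LPS mice. The tdT- PBS libraries stood apart from the rest: 6671 to 9365 genes reached 10 counts in them against at least 10024 in every other library, and pairs of them correlated at r = 0.596 to 0.726 against 0.856 to 0.963 within the other groups. In bulk samples, fewer cells of a type and less RNA per cell cannot be told apart. The 13 macrophage and dCAM markers, among them Mrc1 (the gate marker CD206), summed to 33818 to 66439 CPM (counts divided by the TMM-scaled library size) in tdT- PBS, 17577 to 24081 in tdT- LPS, 59062 to 71632 in tdT+ PBS and 22195 to 26563 in tdT+ LPS. With LPS, 8 of them were called lower and 1 higher in tdT- dCAMs, and 9 lower and 1 higher in tdT+ dCAMs, so this list fell where the members rose. Of the 7 neutrophil markers, 2 rose with LPS in either population, namely S100a8 and Mmp8, and the list summed to 1.87 to 181 CPM in tdT- PBS, 262 to 815 in tdT- LPS, 0.733 to 31.1 in tdT+ PBS and 244 to 571 in tdT+ LPS, while Ly6g was at or under 3 counts in 19 of the 20 libraries. The 5 fibroblast markers summed to as much as 3993 CPM in 1 tdT- PBS library, the one of mouse 179, and to at most 336 CPM in the groups other than tdT- PBS. The 4 erythroid markers tested summed to as much as 765 CPM in tdT- PBS (mouse 178) and to at most 33.9 CPM in the other groups. The 3 dendritic cell markers tested summed to as much as 561 CPM in tdT- PBS (mouse 174). Their highest sums were 336 CPM in tdT+ PBS, 38.9 in tdT- LPS and 28.0 in tdT+ LPS. The part of these cells in the results below was not tested.

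The first question was whether LPS changed proteasome transcripts in either population. After LPS, most members were higher, and none was called lower. In tdT- dCAMs, 12 of the 38 members were called higher and 0 lower, with a median log2 fold change of 0.69 over all members. In tdT+ dCAMs, 23 of the 38 were called higher and 0 lower, with a median of 1.03, which is close to a doubling. The summed share of all counts that fell on members was 0.490% ± 0.0632 (SD, n = 5) in tdT- PBS, 0.788% ± 0.0459 in tdT- LPS, 0.384% ± 0.0302 in tdT+ PBS and 0.742% ± 0.0417 in tdT+ LPS.

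**Figure D1:**
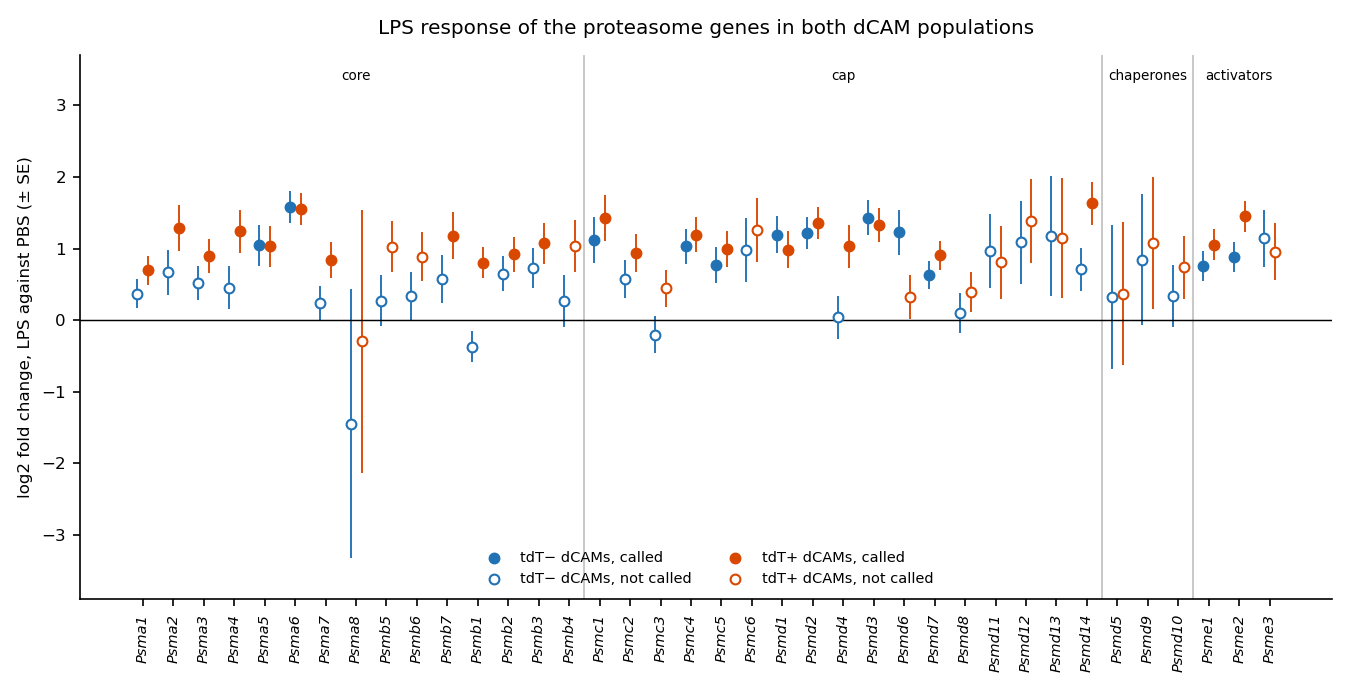
Log2 fold change of each member, LPS against PBS, with its standard error, in tdT- dCAMs (blue) and tdT+ dCAMs (orange), grouped by role. Filled points are called at an adjusted p under 0.05, and 12 filled blue and 23 filled orange points all lie above 0.

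A member was called when the adjusted p of edgeR's quasi-likelihood test, corrected by Benjamini and Hochberg over all 16632 genes, was under 0.05. The members' 31.6% and 60.5% called higher compare with 7.67% of all genes in tdT- and 3.79% in tdT+ dCAMs, and their 0 called lower with 4.85% and 2.83%. Over all genes the median log2 fold change was 0.02 and 0.01. Of the members called higher, 8 in tdT- and 14 in tdT+ dCAMs also rose by more than 2-fold, against 7.20% and 3.37% of all genes. All members but Psma8 had a mean log2 CPM of at least 4, and among the 5823 genes at that level 7.09% and 6.39% were called higher. Every LPS library lay above every PBS library for 10 members in tdT- dCAMs (9.32% of all genes and 9.91% of those at a mean log2 CPM of at least 4) and for 33 members in tdT+ dCAMs (10.6% and 19.5%). No member had an unadjusted p under 0.05 for a fall, and DESeq2 called 0 lower as well.

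The counts depended on the fit more than the directions did. Shares in parentheses are of all genes called higher in the same fit. In tdT- dCAMs, 35 of 38 members had a positive fold change, against 8396 of all 16632 genes. With the spread estimated from the 10 tdT- libraries alone 3 were called (4.19%) and with DESeq2 15 (13.4%). With limma-voom and the mouse as a block 24 were called (22.7%), and with limma-voom and quality weights 10 (8.88%). The median log2 fold change of all genes moved up in both, to 0.76 and 0.68, beside 0.80 and 0.76 for the members. In both limma-voom fits the members' median thus stood little above that of all genes. Without LPS mouse 59, 60 or 61 each 7 were called (5.59% to 6%), and 17 (11.6%) without the 3 tdT- PBS libraries that held a member other than Psma8 at 3 counts or fewer. In tdT+ dCAMs 37 of 38 were positive, against 8343 of all 16632 genes. The count rose to 34 (11%) with the 10 tdT+ libraries alone, to 32 (13.3%) with limma-voom and quality weights, to 28 (6.61%) with limma-voom and the mouse as a block and to 25 (7.15%) with DESeq2. It fell to 14 (2.36%) with no filter on low counts, to 12 without LPS mouse 54, 56 or 60 (2.62% to 2.77%), to 11 (2.56%) without mouse 59 and to 9 (2.41%) without mouse 61. With all libraries thinned to the smallest total, 12 (8.35%) and 20 (3.82%) were called, and with the letter of the sample titles (F or M) as a term 10 (7.17%) and 18 (3.38%).

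Calls were shared by 11 members: Psma5 and Psma6 of the alpha ring, the ATPases Psmc1, Psmc4 and Psmc5, the base subunits Psmd1 and Psmd2, the lid subunits Psmd3 and Psmd7, and the activators Psme1 and Psme2. They make up 91.7% of the tdT- calls and 47.8% of the tdT+ calls. The overlap of calls over all genes was not counted, so these shares do not compare members with other genes. Psmd6 was called in tdT- dCAMs and not in tdT+, and 12 members (Psma1, Psma2, Psma3, Psma4, Psma7, Psmb1, Psmb2, Psmb3, Psmb7, Psmc2, Psmd4 and Psmd14) in tdT+ dCAMs and not in tdT-. The remaining 14 were called in neither. The calls of Psma6, Psmd2 and Psmd3 in tdT- dCAMs held in all 21 alternative fits, and those of Psma6, Psmc1, Psmc4, Psmd2, Psmd3, Psmd7, Psmd14, Psme1 and Psme2 in tdT+ dCAMs held in all 20. No other call held in every fit.

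The core particle was led by Psma6, an alpha ring subunit. Values per library are CPM in the order of mice 174, 175, 177, 178 and 179 for PBS and 54, 56, 59, 60 and 61 for LPS. In tdT- dCAMs Psma6 stood at 277, 102, 189, 133 and 114 in PBS mice and at 436, 511, 447, 519 and 522 in LPS mice. In tdT+ dCAMs it stood at 153, 138, 141, 117 and 143 in PBS mice and at 396, 400.2, 405, 421 and 409.5 in LPS mice. Neither population overlapped between treatments, and the highest PBS value, that of tdT- mouse 174, was the only one above 200. Psma6 rose 2.99-fold in tdT- dCAMs (log2 fold change 1.58 ± 0.22, SE, adjusted p = 5.6e-05) and 2.94-fold in tdT+ dCAMs (1.55 ± 0.22, adjusted p = 7.1e-05).

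Of the 8 alpha ring genes, 7 were called higher in tdT+ dCAMs, with the testis-type subunit Psma8 as the exception, and 2 in tdT- dCAMs. Psma2 lay at 126, 119, 128, 109 and 64.5 in tdT+ PBS and at 269, 244, 262, 271 and 287 in tdT+ LPS. Psma4 lay at 69.5, 49.99, 46.0, 89.6 and 56.7 and at 148, 117, 137, 155 and 179. Both separated the treatments completely, with log2 fold changes of 1.28 ± 0.32 and 1.24 ± 0.30 (adjusted p = 0.015 and 0.011); without LPS mouse 61 both calls were lost. In tdT- PBS the same genes spread over 60.7 to 348 and 66.1 to 166 CPM, which overlapped the LPS values (265 to 326 and 118 to 176), and neither was called. Psma5 rose in both populations by log2 fold changes of 1.04 ± 0.28 and 1.03 ± 0.28 (adjusted p = 0.018 and 0.03). Its calls held in 16 of 21 alternative fits in tdT- and in 11 of 20 in tdT+ dCAMs. Psma8 had 42.8 CPM in the tdT- PBS library of mouse 178, 0 counts in the other 4 of that group, and at most 18.86 CPM elsewhere.

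The constitutive catalytic subunits carry the cutting sites, and of the 3 only Psmb7 was called higher, in tdT+ dCAMs. All 3 had every tdT+ LPS library above every tdT+ PBS library. That held for 10.6% of all genes and 19.5% of those at a mean log2 CPM of at least 4. Psmb5, the chymotrypsin-like subunit, stood at 56.4, 28.4, 92.8, 46.3 and 30.5 CPM in tdT- PBS and 61.7, 64.0, 61.1, 58.6 and 61.4 in tdT- LPS. In tdT+ dCAMs it stood at 32.8, 23.1, 18.2, 32.2 and 24.5 in PBS mice and at 58.9, 53.5, 51.1, 52.5 and 50.5 in LPS mice. The tdT+ treatments did not overlap, whereas tdT- mouse 177 was above all LPS libraries. Its log2 fold change was 0.27 ± 0.35 in tdT- and 1.03 ± 0.36 in tdT+ dCAMs (adjusted p = 0.65 and 0.1), so it was called in neither. Psmb6, the caspase-like subunit, gave 0.34 ± 0.34 and 0.89 ± 0.34 (adjusted p = 0.54 and 0.14), with tdT+ values of 93.0 to 149.8 in PBS and 218 to 243 in LPS. Psmb7, the trypsin-like subunit, rose in tdT+ dCAMs from 22.3 to 39.3 to 61.2 to 75.3 CPM (1.18 ± 0.33, adjusted p = 0.035) and was not called in tdT- dCAMs (0.57 ± 0.33, adjusted p = 0.24). The tdT+ call of Psmb7 held in 11 of 20 alternative fits. It was lost without LPS mouse 54, 56, 59, 60 or 61.

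Of the other beta subunits, which are structural, Psmb1, Psmb2 and Psmb3 were called higher in tdT+ dCAMs and none of the 4 in tdT- dCAMs. Psmb1 stood at 271, 217, 386, 308 and 172 CPM in tdT- PBS and at 199, 184, 191, 263 and 211 in tdT- LPS. In tdT+ dCAMs it stood at 137, 137, 113, 97.2 and 89.0 in PBS mice and at 203, 195, 204, 212 and 184 in LPS mice. The tdT+ PBS libraries were thus the low ones, and the tdT+ treatments did not overlap while the tdT- treatments did. The log2 fold change was 0.80 ± 0.22 in tdT+ (adjusted p = 0.028) and -0.37 ± 0.22 in tdT- dCAMs (adjusted p = 0.26). The tdT+ calls of Psmb1, Psmb2 and Psmb3 held in 12, 13 and 13 of 20 alternative fits. Psmb4 was called in neither, at 0.26 ± 0.36 and 1.03 ± 0.37, although its tdT+ treatments did not overlap.

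**Figure D2:**
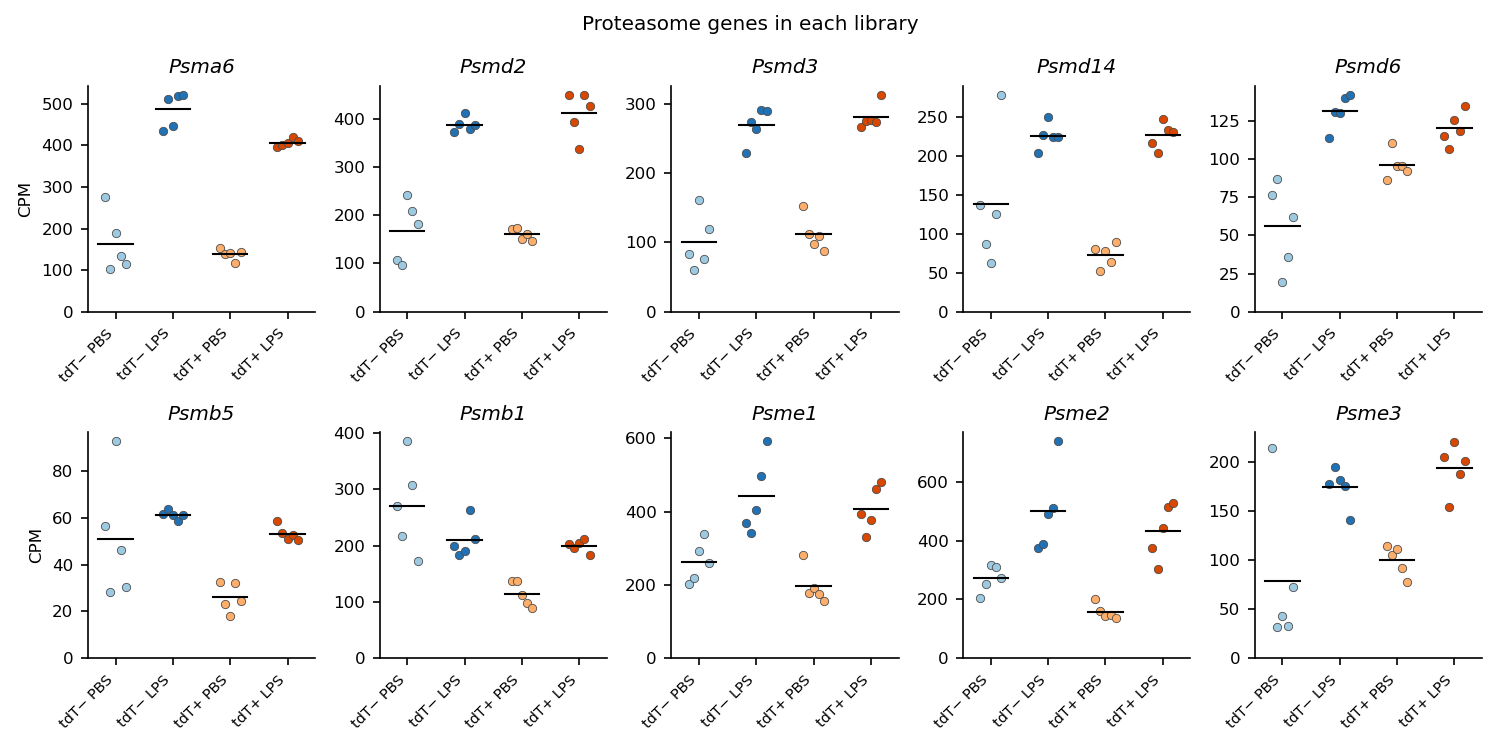
Level of 10 members in each library, in CPM, for the 4 groups, with a point per library and a line at the group mean (each panel has its own axis from 0). Psma6, Psmd2 and Psmd3 separate LPS from PBS in both populations, and the tdT- PBS points are the most spread.

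In the cap, 8 of 17 members were called higher in tdT- and 10 of 17 in tdT+ dCAMs. Psmd2, a base subunit that binds substrates and shuttle factors, stood at 107, 95.7, 242, 209.5 and 181 CPM in tdT- PBS and at 372, 388, 412, 378 and 387 in tdT- LPS. Its tdT+ values were 172, 174, 151, 161 and 146 in PBS mice and 449, 394, 337, 450.3 and 427 in LPS mice. No LPS library was below 337 and no PBS library above 242. The rises were 2.32-fold (1.22 ± 0.22, adjusted p = 0.00072) and 2.56-fold (1.35 ± 0.22, adjusted p = 0.00028). Psmd1, the large scaffold of the base, rose by 1.19 ± 0.25 and 0.99 ± 0.25 on the log2 scale (adjusted p = 0.003 and 0.019). The ubiquitin receptor Psmd4 rose in tdT+ dCAMs from 51.5 to 61.6 to 102 to 126 CPM (1.03 ± 0.30, adjusted p = 0.039). In tdT- dCAMs it stood at 59.5 to 239.9 in PBS mice and 112 to 140.1 in LPS mice (0.04 ± 0.29). The tdT+ call of Psmd4 held in 8 of 20 alternative fits.

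Among the lid subunits, Psmd3 stood at 82.7, 60.1, 161, 76.2 and 119 CPM in tdT- PBS and at 229, 274, 263, 291 and 289.6 in tdT- LPS. Its tdT+ values were 153, 113, 97.5, 109 and 87.4 in PBS mice and 267, 276, 277, 273 and 313 in LPS mice. Again the treatments were apart in both populations, with log2 fold changes of 1.43 ± 0.24 and 1.33 ± 0.24 (adjusted p = 0.0004 and 0.00099). Psmd14, the deubiquitinase that cuts the ubiquitin chain off the substrate, had the largest fold change of all members in tdT+ dCAMs. It went from 81.1, 52.6, 78.3, 64.4 and 89.6 in tdT+ PBS to 217, 205, 248, 234 and 231 in tdT+ LPS. That is a 3.10-fold rise with every LPS library above every PBS library (1.63 ± 0.30, adjusted p = 0.0011). In tdT- dCAMs Psmd14 stood at 138, 86.5, 63.2, 126 and 279 and at 205, 228, 250.1, 225 and 224; mouse 179, at the top, exceeded all LPS libraries and the gene was not called (0.71 ± 0.30, adjusted p = 0.12). Psmd7, the partner of Psmd14 in the lid, rose by 0.63 ± 0.20 and 0.90 ± 0.20 (adjusted p = 0.041 and 0.0059). The tdT- call of Psmd7 held in 8 of 21 alternative fits.

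Psmd6, a lid subunit, was the member called in tdT- dCAMs and not in tdT+. It stood at 76.5, 86.7, 19.8, 35.8 and 62.3 CPM in tdT- PBS and at 114, 131, 130.5, 140.2 and 142 in tdT- LPS. In tdT+ dCAMs it stood at 86.2, 111, 95.2, 95.5 and 92.1 in PBS mice and at 115, 107, 126, 119 and 135 in LPS mice. The tdT- treatments did not overlap, and the tdT+ treatments overlapped through PBS mouse 175. The log2 fold changes were 1.23 ± 0.31 (adjusted p = 0.012) and 0.32 ± 0.31 (adjusted p = 0.68), and their difference of -0.90 ± 0.44 did not pass the test (adjusted p = 0.39). Psmd8, Psmd11, Psmd12 and Psmd13, the other lid subunits, were called in neither population. Psmd13 ranged from 1 count, or 0.131 CPM, in mouse 179 to 192 CPM in mouse 174 in tdT- PBS, against 155 to 187 in tdT- LPS.

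The 6 ATPases unfold the substrate. In tdT- dCAMs Psmc1, Psmc4 and Psmc5 were called higher, and in tdT+ dCAMs these and Psmc2. Psmc1 stood at 31.0, 137, 179.7, 215 and 95.8 CPM in tdT- PBS and at 271, 301, 258, 291 and 307 in tdT- LPS. Its tdT+ values were 92.0, 127, 106, 116 and 99.8 in PBS mice and 289.5, 255, 287, 309 and 319 in LPS mice. Neither population overlapped, and the log2 fold changes were 1.12 ± 0.32 and 1.43 ± 0.32 (adjusted p = 0.025 and 0.0073). Psmc4 rose by 1.03 ± 0.25 and 1.20 ± 0.25 (adjusted p = 0.0072 and 0.0031), and Psmc5 by 0.77 ± 0.25 and 0.99 ± 0.25 (adjusted p = 0.046 and 0.016). The tdT- call of Psmc5 held in 6 of 21 alternative fits. Psmc3 was not called and had the lowest fold changes of the ring, -0.20 and 0.44.

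The chaperones that escort the base during assembly, Psmd5, Psmd9 and Psmd10, were called in no comparison. In tdT- PBS they were uneven between mice: Psmd5 had 0 counts in mice 174 and 179 and 63.6 to 105 CPM in the other mice, and Psmd9 had 1 count in mouse 174, 2 counts in mouse 178 and 15.05 to 67.0 CPM in the rest. A count of 0 allows up to 3 counts, which is 0.455 CPM in mouse 174 and 0.392 CPM in mouse 179 (counting error only). Their LPS values were 49.4 to 69.1 and 38.0 to 55.7 in tdT- dCAMs. The log2 fold changes with LPS were 0.84 ± 0.92 and 1.07 ± 0.92 for Psmd9 and 0.33 ± 0.44 and 0.74 ± 0.44 for Psmd10.

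The activators open the core without ATP. Psme2, which pairs with Psme1 in the interferon-inducible activator, stood at 204, 251, 319, 311 and 274 CPM in tdT- PBS and at 376, 389, 490.4, 512 and 738 in tdT- LPS. In tdT+ dCAMs it stood at 202, 161, 143, 147 and 138 in PBS mice and at 374, 303, 443, 514 and 529 in LPS mice. Its 4 groups were ordered with tdT+ PBS at the bottom, and no LPS library fell within the PBS range of its population. The rises were 1.84-fold (0.88 ± 0.21, adjusted p = 0.0083) and 2.73-fold (1.45 ± 0.22, adjusted p = 0.00011). Psme1 rose from 202 to 338 to 342 to 594 CPM in tdT- dCAMs (0.75 ± 0.21, adjusted p = 0.022) and from 156 to 283 to 329 to 479 in tdT+ dCAMs (1.06 ± 0.21, adjusted p = 0.0024). Psme2 shares sequence with the near-copy Psme2b, which stood at 6.67 to 18.89 CPM in tdT- PBS and 10.6 to 15.2 in tdT+ LPS, so part of its reads may have been counted elsewhere.

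Psme3, which forms the nuclear activator, was called in neither population. It stood at 214, 32.2, 42.8, 32.7 and 72.9 CPM in tdT- PBS and at 177, 195, 182, 176 and 141 in tdT- LPS. In tdT+ dCAMs it stood at 114, 106, 112, 91.6 and 77.3 in PBS mice and at 206, 155, 221, 188 and 202 in LPS mice. Mouse 174 was the high one in tdT- PBS, above every tdT- LPS library, and the tdT+ treatments did not overlap. The log2 fold changes were 1.14 ± 0.40 and 0.96 ± 0.40 (adjusted p = 0.067 and 0.19).

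**Figure D3:**
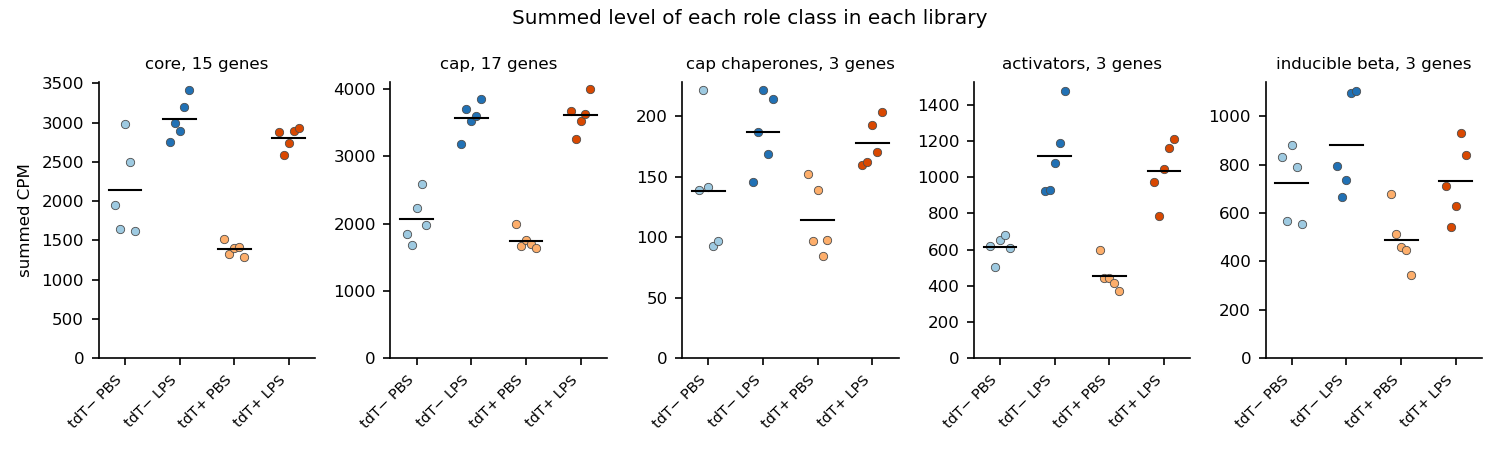
Summed CPM of each role class in each library, with a line at the group mean, for core, cap, cap chaperones, activators and the inducible beta subunits. The core, cap and activator sums of the LPS libraries lie above those of the PBS libraries of the same population, except for a tdT- PBS core value inside the LPS range.

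Summed over a class, the core stood at 2142 ± 589 CPM (SD, n = 5) in tdT- PBS, 3052 ± 260.4 in tdT- LPS, 1389 ± 88.2 in tdT+ PBS and 2806 ± 143 in tdT+ LPS. The cap stood at 2066 ± 360.4, 3575 ± 249, 1749 ± 147 and 3618 ± 267 CPM in the same order. The activators stood at 613 ± 68.2, 1117 ± 228, 455 ± 86.3 and 1035 ± 168 CPM. LPS means over PBS means came to 1.43, 1.73 and 1.82 for core, cap and activators in tdT- dCAMs and to 2.02, 2.07 and 2.28 in tdT+ dCAMs, and the sums are descriptive. The tdT+ means over the tdT- means came to 0.649, 0.847 and 0.742 in PBS mice and to 0.920, 1.01 and 0.927 in LPS mice.

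Promoters were read from the RefSeq table of GRCm38.p6, from 250 bases before to 50 after each start, for the 31 members that it holds (entries for Psma8, Psmb1, Psmb2, Psmb7, Psmc3, Psmd3 and Psmd7 were not used here). They are shown for the member that led the core (Psma6), for the pair of catalytic subunits that were not called (Psmb5 and Psmb6) and for Psme1. Capitals mark the searched letters that were found in each, on either strand. They lie at chr12:55383972-55384271 (plus strand; Psma6 has a second entry further downstream), chr14:54617946-54618245 (minus strand), chr11:70525107-70525406 (plus strand) and chr14:55578244-55578543 (plus strand).
Psma6: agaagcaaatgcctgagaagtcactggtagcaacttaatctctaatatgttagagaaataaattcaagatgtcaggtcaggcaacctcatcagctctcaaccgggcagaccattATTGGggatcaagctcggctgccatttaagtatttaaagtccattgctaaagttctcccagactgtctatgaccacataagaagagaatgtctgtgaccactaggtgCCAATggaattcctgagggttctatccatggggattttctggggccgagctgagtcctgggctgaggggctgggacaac
Psmb5: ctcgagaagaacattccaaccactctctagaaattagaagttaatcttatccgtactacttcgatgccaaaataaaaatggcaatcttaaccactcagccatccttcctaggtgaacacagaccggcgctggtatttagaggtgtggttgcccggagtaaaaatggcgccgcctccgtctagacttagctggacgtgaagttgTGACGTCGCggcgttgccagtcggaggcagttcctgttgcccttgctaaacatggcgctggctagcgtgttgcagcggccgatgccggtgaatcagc
Psmb6: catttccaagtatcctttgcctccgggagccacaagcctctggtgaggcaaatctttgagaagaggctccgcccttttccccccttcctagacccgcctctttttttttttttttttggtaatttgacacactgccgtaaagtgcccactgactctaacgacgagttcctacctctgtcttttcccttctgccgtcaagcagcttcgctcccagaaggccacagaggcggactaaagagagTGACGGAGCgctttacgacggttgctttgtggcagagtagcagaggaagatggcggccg
Psme1: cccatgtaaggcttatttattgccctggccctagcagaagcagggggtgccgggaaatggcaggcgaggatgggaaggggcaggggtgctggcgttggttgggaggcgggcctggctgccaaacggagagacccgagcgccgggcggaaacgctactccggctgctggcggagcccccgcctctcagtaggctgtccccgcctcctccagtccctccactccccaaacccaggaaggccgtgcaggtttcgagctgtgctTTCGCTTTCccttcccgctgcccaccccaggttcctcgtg

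The capitals are CCAAT boxes in Psma6, beginning 136 and 29 bases before the start, an antioxidant response element (TGACNNNGC) 47 bases before the start of Psmb5 and 9 bases before that of Psmb6, and an interferon response element (GAAANNGAA) 10 bases after the start of Psme1. The antioxidant response letters were in 5 of 31 member promoters, Psmb5, Psmb6, Psmc6, Psmd9 and Psmd12, which is 16.1% against 13.99% of all 27025 genes in the table. In the fit over all 20 libraries none of the 5 was called with LPS. Of the 19 members with a promoter that were called in either population, 0 held these letters. This depends on the fit, as the tdT+ libraries alone gave 34 of 38 members called higher (11% of all genes). Psmb5, Psmb6, Psmc6 and Psmd12 had every tdT+ LPS library above every tdT+ PBS library (10.6% of all genes), and Psmd9 did not. CCAAT was in 12 member promoters (38.7% against 41.1%), 10 of them among the 19 called and 2 among the 12 not called. The split by call was not counted over all genes for CCAAT or for the antioxidant response letters. It therefore does not link either to the LPS calls. The interferon response letters were in 6 (19.4% against 9.76%), the gamma-activated site TTCNNNGAA in 1 (Psmd2, 3.23% against 9.55%) and the NF-kB letters GGNNTTTCC in 1 (the second entry of Psma6, 3.23% against 6.62%). Of the 36 matches, 1 pair overlapped, both CCAAT in Psmd14. A match is a stretch of letters and not a shown binding site.

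The next question was whether the populations differed. In PBS mice, 32 of 38 members had a lower fitted level in tdT+ than in tdT- dCAMs, against 8335 of all 16632 genes. Of the members, 3 were called lower (1.58% of all genes) and 0 called higher (3.10%; 1 member had an unadjusted p under 0.05 and DESeq2 called 0). The 3 were Psmb1, with a log2 fold change of -1.24 ± 0.22 (adjusted p = 0.0018), Psmd4, with -1.07 ± 0.30 (adjusted p = 0.042), and Psme2, with -0.78 ± 0.21 (adjusted p = 0.039). Psmb1 and Psme2 were lower in the tdT+ library of 5 of 5 mice without overlap between the populations, and Psmd4 in 4 of 5. Without overlap, 236 of all 16632 genes were lower in tdT+ dCAMs of PBS mice. Cell markers moved in this comparison too. Of the 4 monocyte markers, 3 were called lower in tdT+ than in tdT- dCAMs of PBS mice, with list sums of 548 to 1095 CPM in tdT- and 160 to 467 in tdT+, and of the 13 macrophage and dCAM markers 3 were called higher. Their part in the result was not tested.

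These PBS calls rested on the fit to unequal degrees. Psmb1 kept its call in 21 of 22 alternative fits, Psmd4 in 8 and Psme2 in 9. With the mouse as a block, 1 of the 3 was left, Psmb1, in edgeR (0.655% of all genes lower) and in limma-voom (2.36%) alike, and limma-voom called Psmd6 higher (12.2% of all genes higher). DESeq2 called 8 lower (6.44%), and 10 were called lower (3.12%) and 1 higher (6.23%) without the 3 tdT- PBS libraries of mice 174, 178 and 179. Leaving out mouse 54, 56, 59, 60, 175 or 178 left 1 call (0.86% to 2.23% of all genes lower).

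**Figure D4:**
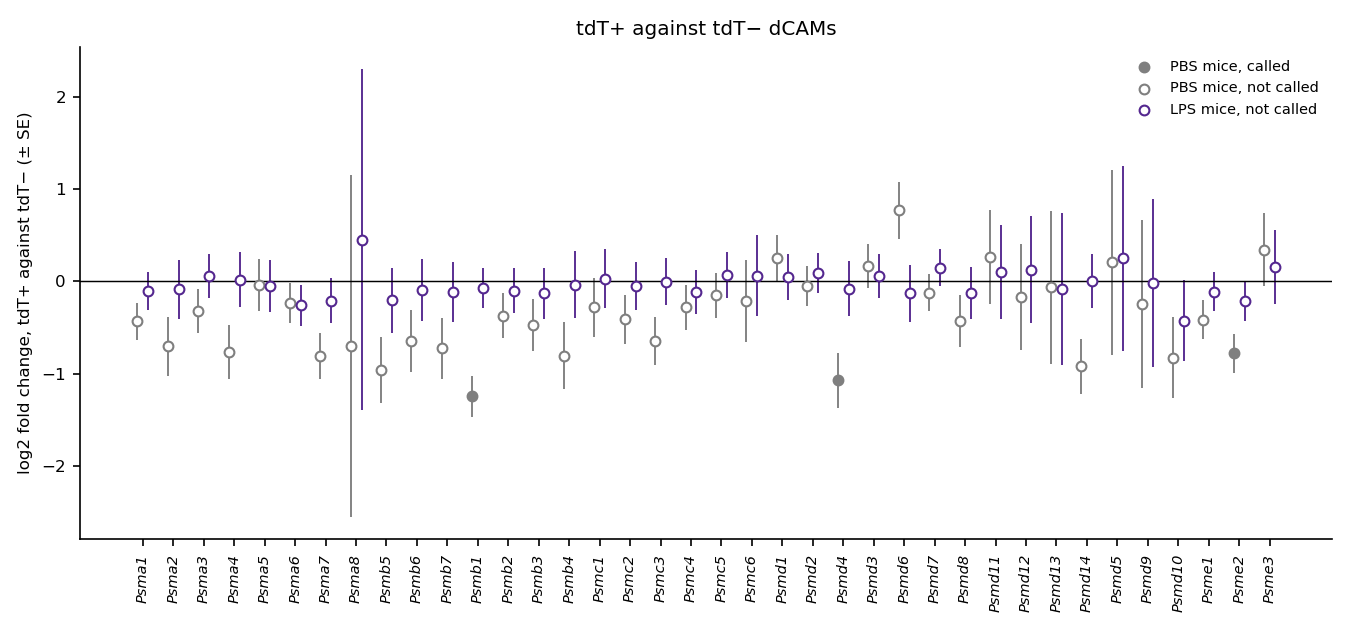
Log2 fold change of each member, tdT+ against tdT- dCAMs, with its standard error, in PBS mice (grey) and LPS mice (purple), in the same gene order as above. Filled grey points are Psmb1, Psmd4 and Psme2, and no purple point is filled.

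In LPS mice, 0 members were called in either direction (0% of all genes higher and 0.0301% lower), 0 had an unadjusted p under 0.05, and DESeq2 called 0. The median log2 fold change over the members was -0.05 against -0.39 in PBS mice. Psma6, with 436 to 522 CPM in tdT- LPS and 396 to 421 in tdT+ LPS, did not overlap between the populations and was lower in the tdT+ library of every mouse (-0.26 ± 0.22, adjusted p = 1). The 95% interval of that difference, -0.73 to 0.20, still holds 0. Psma6 was the 1 member of 38 that was lower without overlap in LPS mice, against 192 of all 16632 genes.

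Whether LPS acted differently in tdT+ and tdT- dCAMs was tested as the difference of the LPS effects. It was called for 0 members in either direction (0.0902% of all genes higher and 1.17% lower). By unadjusted p, 3 members were under 0.05, Psmb1 at 1.18 ± 0.31 (adjusted p = 0.067), Psmd4 at 0.99 ± 0.42 (adjusted p = 0.29) and Psmd14 at 0.92 ± 0.42 (adjusted p = 0.34), all larger in tdT+. The sign was positive for 30 of 38 members, against 8439 of all 16632 genes. Both effects rest on different mice per treatment but on the same mice for both populations. The PBS libraries are those of the population comparison in PBS mice. The 30 of 38 here and the 32 of 38 lower there are therefore not separate observations. The difference of Psmb1 was called in 7 of 21 alternative fits, with DESeq2 (adjusted p = 0.0007) and with the mouse as a block in limma-voom (1.21, adjusted p = 0.019) among them, and not with the mouse as a block in edgeR (1.15, adjusted p = 0.15). Its adjusted p ran from 0.0007 to 0.24 over these fits. In the fits that called Psmb1, 0.0722% to 1.64% of all genes were called with a larger effect in tdT+. For the catalytic subunits the difference was 0.76 ± 0.50 for Psmb5 (95% interval -0.30 to 1.82), 0.55 ± 0.48 for Psmb6 (-0.46 to 1.55) and 0.61 ± 0.47 for Psmb7 (-0.38 to 1.59). These intervals reach past a 2-fold difference, so the different number of calls in the populations does not show that the responses differ.

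The inducible catalytic subunits Psmb8, Psmb9 and Psmb10, which replace Psmb5, Psmb6 and Psmb7 in the immunoproteasome, are not members and were measured beside them. Psmb8 stood at 306, 241, 235, 227 and 155 CPM in tdT+ PBS and at 377, 294, 330.2, 514 and 419.8 in tdT+ LPS and rose (0.74 ± 0.22, adjusted p = 0.043), and it was not called in tdT- dCAMs (0.35 ± 0.22, adjusted p = 0.28). Psmb9 (-0.17 ± 0.26 and 0.14 ± 0.26) and Psmb10 (0.60 ± 0.30 and 0.67 ± 0.30) were called in neither. Summed, the mean of these 3 genes in LPS mice was 1.21 times that in PBS mice in tdT- dCAMs and 1.496 times in tdT+ dCAMs, and for Psmb5, Psmb6 and Psmb7 together it was 1.29 and 1.95 times.

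Within a library, the ratio of the paired subunits cancels library size. The log2 ratio of Psmb9 to Psmb6 counts was 0.43, 0.19, 0.15, -0.38 and -0.01 in tdT+ PBS and -0.51, -1.07, -0.83, -0.37 and -0.58 in tdT+ LPS. Its mean differed by -0.75 (exact permutation test over the 10 libraries, two-sided p = 0.0159, adjusted p = 0.079 over 10 tests), with a small overlap of the treatments. The log2 ratio of Psme2 to Psme3 was 0.82, 0.61, 0.35, 0.68 and 0.84 in tdT+ PBS and 0.86, 0.97, 1.0040, 1.45 and 1.39 in tdT+ LPS, without overlap, with p = 0.00794 by the same exact test, the smallest that 252 arrangements give (adjusted p = 0.079). No ratio of the 10 LPS comparisons passed the adjustment. For the tdT+ against tdT- comparison sign flips over 5 mice cannot reach the threshold, and the smallest adjusted p of this exact test was 0.208. The mean Psmb8 to Psmb5 log2 ratio was 3.15 ± 0.42 (SD, n = 5) in tdT+ PBS and 2.84 ± 0.33 in tdT+ LPS.

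**Figure D5:**
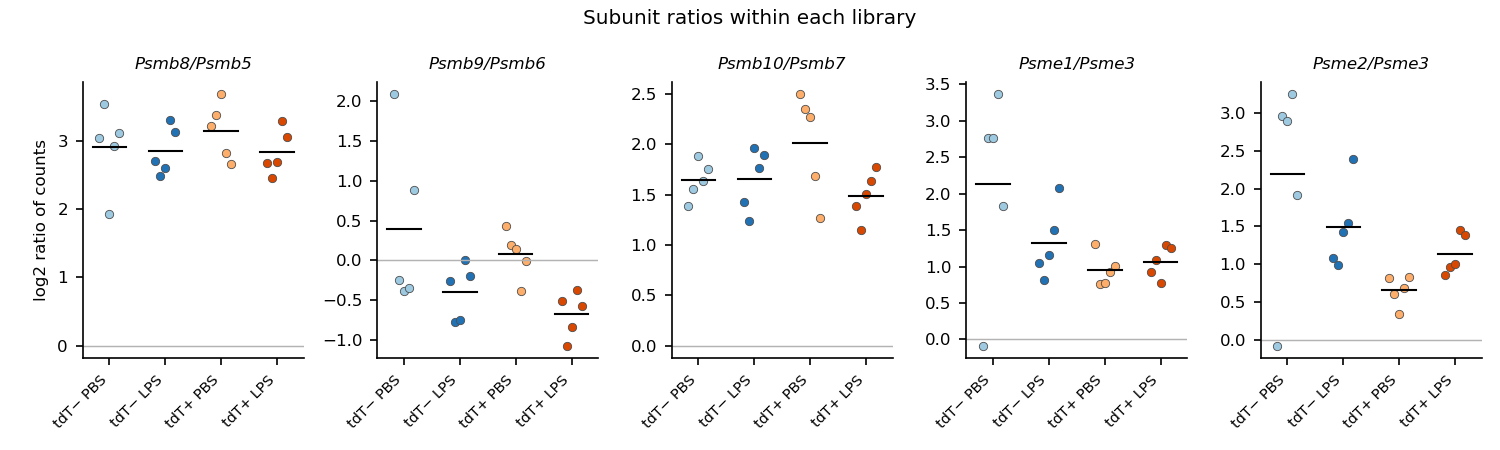
Log2 ratio of counts of 5 subunit pairs in each library, for the 4 groups, with a line at the group mean. In tdT+ dCAMs the Psme2 to Psme3 ratio of every LPS library lies above those of PBS, and the other ratios overlap between treatments.

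The members covered a wide range of levels. On a scale per length (RPKM, CPM per kilobase of exon in GENCODE M21), Psma6 was the highest by its mean over the groups, at 132 ± 58.2 (SD, n = 5) in tdT- PBS, 395 ± 34.0 in tdT- LPS, 112 ± 10.96 in tdT+ PBS and 329 ± 7.77 in tdT+ LPS. Psmb2 came next at 197 ± 100.01, 309 ± 40.2, 152 ± 15.03 and 288 ± 22.8, and its mean was above that of Psma6 in both PBS groups and below it in both LPS groups. In tdT+ PBS every Psmb2 library (134 to 174) lay above every Psma6 library (94.4 to 124), in tdT+ LPS every one lay below, and the tdT- groups overlapped. Psmb5 stood at 59.3 ± 3.72 and Psmb7 at 20.2 ± 1.76 in tdT+ LPS. Each length joins the exons of all annotated transcripts of a gene, 899 bases for Psmb5 and 3421 for Psmb7. The order between genes depends on these lengths. In CPM, Psmb7 (61.2 to 75.3) lay above Psmb5 (50.5 to 58.9) in tdT+ LPS. The lowest member was Psma8, at 1.72 ± 0.823 in tdT+ LPS, followed by the chaperone Psmd9 at 6.26 ± 0.679.

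The spread between libraries also differed by group. The median coefficient of variation over the members was 49.1% in tdT- PBS, 11.9% in tdT- LPS, 19.4% in tdT+ PBS and 10.8% in tdT+ LPS. Of the 12 member and library pairs at 3 counts or fewer, 9 were in tdT- PBS, 1 in tdT- LPS, 2 in tdT+ PBS and 0 in tdT+ LPS. Every such pair outside tdT- PBS was Psma8.

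Other genes of the pathway moved less uniformly. Of the 5 core assembly factors, only Psmg3 was called, higher with LPS in tdT- dCAMs, where its mean was 0.193 CPM in PBS and 11.5 in LPS mice against 16.1 and 12.3 in tdT+ dCAMs. Among the genes of ubiquitin and its activation, the polyubiquitin gene Ubb fell in tdT- dCAMs (log2 fold change -0.41 ± 0.12, adjusted p = 0.028), and Vcp, the segregase that delivers substrates to the cap, rose there by 1.19 ± 0.27 (adjusted p = 0.0047). Of the 5 genes of the transcription factors that control subunit genes and their processing, Nfe2l2 fell in tdT- dCAMs (-0.82 ± 0.26, adjusted p = 0.039). Nfe2l1, which drives subunit genes when the proteasome is inhibited, had fold changes of 1.05 ± 0.44 and 0.64 ± 0.44 and was called in neither (adjusted p = 0.12 and 0.49). Of 6 other cap subunits and ubiquitin receptors, Sem1, a lid subunit outside the naming rule, rose in tdT+ dCAMs by 0.75 ± 0.19 (adjusted p = 0.017). None of 8 other regulators of the particle was called with LPS. Of 10 genes of the COP9 signalosome, a complex related to the lid, 1 was called lower in tdT- dCAMs (Cops9) and none was called higher. Between the populations in PBS mice, Psmg3 was called higher and Sem1, Uchl5, Ubb and Cops9 lower in tdT+ dCAMs. In LPS mice none of the 44 genes on these lists was called.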

How the data were processed

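RNA was measured in 20 libraries of sorted dCAMs from 10 mice. The authors deposited raw counts per gene symbol, made per the labels from SMART-Seq libraries with bcl2fastq 2.20, STAR 2.7.11a and featureCounts 2.0.6, in that table with no normalization. The genome build is given as mm10 or GRCm39 without saying which. The coordinates used here are GRCm38 (GENCODE M21 and RefSeq), matched by symbol, and serve only to locate genes. Reads of subunits with near-identical copies or pseudogenes may be split by the counting, and amplified reads are not independent molecules, so the limits set by a count of 0 cover counting error only, whereas SEs and 95% intervals of fold changes come from the spread between libraries.

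The counts were fitted with edgeR 4.0.16 in R 4.3.3 (TMM, quasi-likelihood, a mean per group, all 20 libraries, genes with at least 10 counts in total), with Benjamini-Hochberg adjustment over 16632 genes. SEs were taken as the log2 fold change over the root of F, and intervals at 95%. Ratios used a pseudocount of 0.5 and exact tests in Python 3.11.15. Alternatives were DESeq2 1.42.0, limma 3.58.1 (voom), other scalings and filters, the libraries compared alone, the title letter (F or M) as a term, the mouse as a block and leaving out each mouse. Thinning to 6017650 counts and leaving out 3 tdT- PBS libraries were chosen after seeing the data. The scripts were tested on simulated data with the same spread per gene in every group. That test does not cover the wider spread of the tdT- PBS libraries.

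The tdT+ and tdT- libraries of a mouse carry the same animal number, so they are paired by animal. The correlation of their deviations from the group means was 0.00091 to 0.0333 in PBS mice and 0.0471 to 0.119 in LPS mice over all genes, and -0.0046 to 0.0461 and 0.228 to 0.449 over the genes whose log2 CPM averaged at least 4. Each library is a separate mouse and population. Genes named with full values were the catalytic and activator genes, up to 12 called members per comparison by smallest p, the smallest p of each role class, members at 3 counts or fewer in a library, and the extremes per length. The members and lists were chosen with earlier results of these data known. A result for 1 gene of the pathway lists is not reported here.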

Additional observations from a re-analysis of the deposited data

Results flagged for a closer look

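Within a group of 5 libraries, a value was singled out where the highest or lowest library stood away from the others by more of the group's log2 range than Dixon's 95% critical value, which chance gives in about 1 of 20 groups. Of 152 groups tested over the members, 12 held such a value, 7 of them for members named above. Mouse 61 was the high one among LPS mice for Psma2 in tdT- dCAMs (326 CPM, the others 265 to 281), Psmd13 in tdT- dCAMs (187 CPM, the others 155 to 163), Psmc4 in tdT+ dCAMs (316 CPM, the others 232 to 243) and Psmd3 in tdT+ dCAMs (313 CPM, the others 267 to 277). Mouse 54 was low for Psmd7 in tdT- LPS (170.4 CPM, the others 219 to 231). Mouse 179 was low for Psma2 in tdT+ PBS (64.5 CPM, the others 109 to 128). Psma8 had 42.8 CPM in the tdT- PBS library of mouse 178 and 0 in the other 4. By edgeR's quasi-likelihood test over all libraries, no difference of the LPS effects between the populations was called for a member. DESeq2 called 1, Psmb1 (1.64% of all genes called in that direction).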

How the results depend on the processing

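Of 431 recomputed counts and ratios, 391 kept their direction and size class. Shares in parentheses are of all genes called in the same direction in the same fit. For the members higher with LPS in tdT- dCAMs (12), the libraries compared alone gave 3 (4.19%) and the replicate block in limma-voom 24 (22.7%). Leaving out each mouse gave 7 to 15 (5.52% to 10.7%). For those past 2-fold (8) the same settings gave 3 and 15, and 5 to 9. Counts past 2-fold are given without a share of all genes in these fits, so they do not compare members with other genes. In tdT+ dCAMs (23) no filter on low counts gave 14 (2.36%) and leaving out each mouse 9 to 25 (2.41% to 4.17%), with 7 to 18 past 2-fold. In PBS mice, the 3 members lower in tdT+ dCAMs became 8 with DESeq2 (6.44%), 1 with no filter (0.762%) and 0 with the libraries compared alone (0.0417%). They became 1 with quality weights (0.415%), 1 with the replicate block in limma-voom (2.36%) and 1 with it in edgeR (0.655%). They became 10 (3.12%) without the 3 tdT- PBS libraries that hold a member other than Psma8 at 3 counts or fewer (mice 174, 178 and 179). Without each mouse they became 1 to 4 (0.86% to 2.23%). The 0 higher became 1 with the replicate block in limma-voom (12.2%), 1 without those 3 libraries (6.23%) and 0 to 1 without each mouse (2.14% to 6.37%). The 0 members with a larger LPS effect in tdT+ dCAMs became 1, Psmb1, with DESeq2 (1.64%) and with the stricter filter (0.248%). The same held with quality weights (0.0722%) and with the replicate block in limma-voom (0.204%). Leaving out those 3 libraries gave Psmb1 as well (0.667%), and 1 with a smaller effect, Psme3 (3.97%). Without each mouse the count was 0 to 1 (0.00601% to 0.391%). Psma8 in tdT- dCAMs, at a log2 fold change of -1.45, ran from -1.78 to 8.18 without each mouse and turned positive without mouse 178. The cause was not tested.

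For single members, 3711 of 3985 recomputed results kept their direction and side of the threshold, 182 lost a call, 91 gained one and 1 reversed. The replicate block in edgeR changed no call in LPS mice. The scatter of the tdT- PBS libraries limits every comparison that uses them. Their totals (6649046 to 9495177 counts) lay within those of tdT+ PBS (6017650 to 12208203). Psmd5, with 0 counts in the tdT- library of mouse 174, had 681 in the smaller tdT+ library of that mouse. The cause of that 0 was not tested.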
